A study of Caenorhabditis elegans with 4 samples.

Results

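Broad binding of the nuclear protein ZFP-1 was described here in wild-type larvae of the nematode Caenorhabditis elegans, as the regions of at least 4000 bp in the peak list of ChIP replicate 2. The regions were chosen by that width alone, on all chromosomes, and there were 360 of them among the 6371 peaks of the list. They made up 5.65% of its peaks and held 2256771 of its 10950063 bases, or 20.6%. The other 6011 peaks of replicate 2, all under 4000 bp, served as the comparison.

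The samples were whole L3 larvae of strain N2, grown at 20 degrees Celsius, with males and hermaphrodites together. There were 2 ZFP-1 immunoprecipitates (replicates 1 and 2) and 2 matching input DNA samples (replicates 1 and 2), and genotype, stage and temperature were the same in all 4. The immunoprecipitating antibody was a purified polyclonal from rabbit, directed against residues 573 to 867 of ZFP-1. Whole animals were used, so binding in different tissues cannot be told apart. Per the labels the replicates are separate samples, but no label says that they came from separate cultures, so differences between them may be technical. The files were 3 peak lists, of replicate 1 (3559 peaks), of replicate 2 (6371 peaks) and of the whole series (13878 peaks). Read depth was unknown, and no input peak list was analysed here, so no background could be set beside the values. The series list is not independent of the replicates, and nothing was tested with it.

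ZFP-1 carries PHD-type zinc fingers and is the worm relative of mammalian MLLT10 (AF10). It acts with DOT-1.1, an enzyme that methylates a lysine in the core of histone H3, a mark found over the bodies of transcribed genes. A chromatin factor of this kind can be found at narrow sites such as promoters and over longer stretches. A peak caller reports a long stretch as 1 wide interval or as several short ones, depending on the signal between its high points. How the lists divided the same stretch is therefore part of the description below.

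The width of the 360 regions ran from 4003 to 28826 bp, with a median of 5418 bp and an interquartile range of 4542 to 6784 bp. Among peaks under 4000 bp the median was 1168 bp, with quartiles of 981 and 1680 bp. Many regions lay near the lower limit, with 143 under 5000 bp and 79 from 5000 to under 6000 bp. Another 77 were from 6000 to under 8000 bp, 31 from 8000 to under 10000 bp and 30 of 10000 bp or more. No gap separated the regions from shorter peaks. The 3 narrowest regions were 4003, 4005 and 4011 bp wide, on IV, III and I, and the 3 widest peaks outside the limit were 3991, 3980 and 3973 bp, on I, V and X. The regions just inside scored 3100, 2622 and 2221 in replicate 2, and the peaks just outside all scored 3100. In replicate 1 the best-overlapping peaks scored 681, 541 and 52.7 just inside the limit and 1260, 3105 and 1661 just outside it.

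The score is the authors' own value for each peak, with no stated unit, and it was tied at exactly 3100 for many peaks. It reached 3100 or more in 235 of the 360 regions (65.3%, exact 95% interval 60.1 to 70.2%) and in 286 of the 6011 shorter peaks (4.76%, 4.23 to 5.33%). The share at 3100 or more grew with width up to 10000 bp: it was 35.6% of the peaks from 3000 to under 4000 bp, 50.3% from 4000 to under 5000 bp and 90.3% from 8000 to under 10000 bp. The widest region of all, on II, scored 853. Score and width come from the same list, so these values are a description. Only 4 of the 360 regions scored below the list's median of 352.

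The 10 widest regions spread over all 6 chromosomes. The widest lay on II from 6820012 to 6848837 (28826 bp). Replicate 1 listed 6 peaks there, which covered 94.6% of its bases, and the series list had 14, which covered 84.7%. The replicate 1 peaks were 2181, 808, 13664, 1825, 1949 and 6875 bp wide and scored 2028, 76.4, 2791, 897, 304 and 3100. The strongest of these peaks lay at the right end of the region, and the widest reached from its left part past its centre. The widest replicate 1 peak was met by 3 series-list peaks of 1229, 5323 and 6862 bp, which scored 79.0, 184 and 109.

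On X, the region from 11461194 to 11485259 (24066 bp) scored 2817 in replicate 2. Replicate 1 divided it into 3 peaks of 6950, 2099 and 13553 bp, which scored 3066, 81.0 and 979, and 93.9% of it was covered. Its first base is also the first base of the leftmost replicate 1 peak. The series list divided it into 9 peaks that covered 88.1%, the widest being 6915 bp. On III, the region from 7718001 to 7736139 (18139 bp, score 3100) held 15 series-list peaks, the most of any region, and 5 replicate 1 peaks that covered 83.8%. On X from 12168870 to 12185047 (16178 bp, score 1145), replicate 1 listed 4 peaks over 94.4% of the bases.

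The next of the 10 lay on V from 10713489 to 10728423 (14935 bp), on I from 5303089 to 5317463 (14375 bp), on IV from 4395460 to 4409314 (13855 bp), on III from 5834177 to 5847367 (13191 bp) and on II from 1234763 to 1247786 (13024 bp). All 5 scored 3100 in replicate 2. Replicate 1 covered between 83.5% and 91.7% of each, with 2, 2, 4, 2 and 3 peaks in that order. The region on V scored 2088 in replicate 1, by its best-overlapping peak, and the other 4 scored 3100. One of the 10 stood apart. The region on V from 8654172 to 8670815 (16644 bp, score 3100) held a single replicate 1 peak of 2379 bp with a score of 180, which covered 14.3% at its left end.

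**Figure D1:**
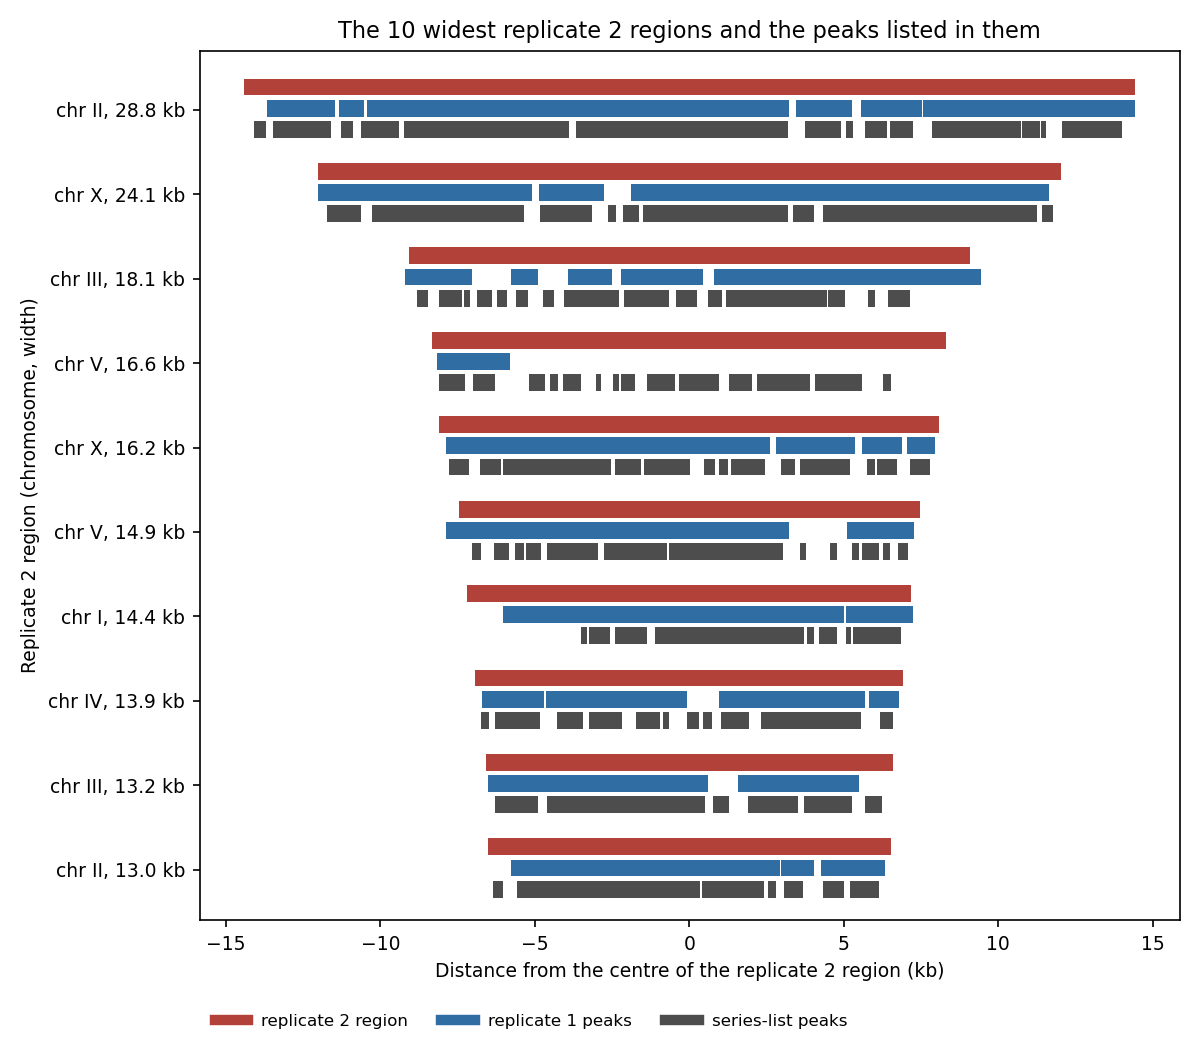
The 10 widest replicate 2 regions (red), the replicate 1 peaks (blue) and series-list peaks (grey) that met them, drawn to scale in kb from each region's centre; the shortest gaps are too narrow to see. Replicate 1 covered 83.5% or more of 9 of them and 14.3% of the 16.6 kb region on V.

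On the autosomes, broad regions were more often central than shorter peaks. In this species genes are dense in the autosome centres and repeats are more frequent on the arms. By peak midpoint, 152 of 264 autosomal broad regions (57.6%, 51.4 to 63.6%) and 1818 of 4423 shorter peaks (41.1%, 39.6 to 42.6%) lay in the central 33.3% of their chromosome. The difference was 16.5 percentage points, with an adjusted p of 2.88e-07 (two-sided Fisher's exact test, Benjamini-Hochberg over 5 tests). The direction was the same on 5 of 5 autosomes. Broad regions and shorter peaks were central in 60.3% and 41.0% on I, 64.4% and 43.2% on II, 50.0% and 35.0% on III, 53.7% and 39.6% on IV, and in 30 of 50 and 46.7% on V.

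Fisher's test treats peaks as independent, and neighbouring peaks are not, so all p-values of this kind are too small. With the widest region kept per run of broad regions whose neighbouring midpoints lay under 50 kb apart, 53.8% of 197 regions were central. The 4423 shorter peaks were not thinned, and 41.1% of them were central (adjusted p = 0.000618, Fisher's exact test). That p-value still treats neighbouring shorter peaks as independent. In the other replicate the shares were closer. Of the replicate 1 peaks of at least 4000 bp, 50.4% of 133 on the autosomes were central, against 42.6% of its 2539 shorter ones, and this did not pass (adjusted p = 0.11, Fisher's exact test). The direction was thus the same in both replicates, but the difference passed with regions of replicate 2 alone. Among replicate 2 peaks with the midpoint in a replicate 1 peak, 57.0% of 228 broad regions and 41.1% of 2040 shorter peaks were central. This comparison, chosen after seeing the data, had an adjusted p of 6.9e-06 (Fisher's exact test), and its widths still come from replicate 2.

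With each autosome cut into 10 equal segments, segments 5, 6 and 7 held 19.3%, 17.0% and 21.97% of the broad regions, against 13.2%, 12.1% and 12.3% of the shorter peaks. At the outer ends, segments 1 and 2 held 3.41% and 2.27% of the broad regions and 8.50% and 7.23% of the shorter peaks. Segments 9 and 10 held 3.03% and 4.17%, against 7.28% and 7.69%. Seen the other way, broad regions made up 9.60% of the replicate 2 peaks in segment 7 and 1.84% of those in segment 2. The left and right ends of single autosomes differed. On I, 19 of its 68 broad regions lay in segment 7, and on V none of the 50 lay in segments 9 and 10.

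**Figure D2:**
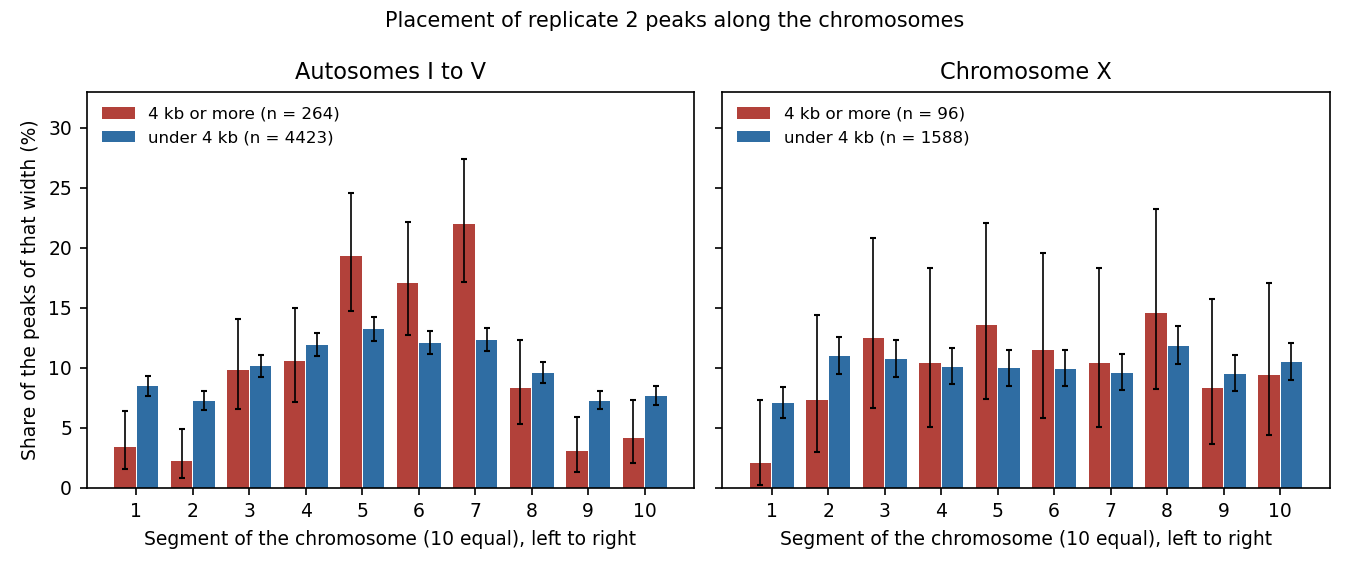
Share of replicate 2 peaks of 4 kb or more (red) and under 4 kb (blue) in each of 10 equal segments of the chromosome, left to right, for autosomes (left panel) and X (right panel), with exact 95% binomial intervals. On the autosomes the red bars exceed the blue ones in segments 5 to 7, and in segments 5 and 7 the intervals do not overlap. In the other segments the blue bars exceed the red ones, and in segments 1, 2 and 9 the intervals do not overlap. On X every pair of intervals overlaps.

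The X chromosome held 96 of the 360 broad regions (26.7%, 22.2 to 31.6%) and 1588 of the 6011 shorter peaks (26.4%, 25.3 to 27.6%). The difference of 0.25 percentage points did not pass (adjusted p = 0.902, two-sided Fisher's exact test), and its direction changed with the comparison peaks and with the autosomes kept. X carried more broad regions per length than any autosome, 5.42 per Mb against 2.35 (IV) to 4.51 (I), as it did for shorter peaks, 89.6 per Mb against 42.4 (V) to 64.3 (III). Broad regions were 5.70% of the replicate 2 peaks on X (4.64 to 6.92%). On the autosomes the share ran from 4.46% on IV (3.22 to 6.004%) to 6.90% on I (5.40 to 8.67%), and the intervals of all 6 chromosomes overlapped.

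Broad regions covered 3.51% of the span of X, 2.72% of I, 2.67% of III, 2.00% of II, 1.45% of V and 1.43% of IV. Median widths were 5571 bp on X and 5006 (V) to 6082 bp (II) on the autosomes. Within X, 38.5% of broad regions (28.8 to 49.0%) and 33.1% of shorter peaks lay in the central 33.3%.

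Regions were unevenly spaced. Neighbouring broad regions lay a median of 134172 bp apart, with an interquartile range of 44512 to 307267 bp, and 95 of the 354 gaps were under 50 kb. The closest pair, on II, was split by 52 bp, between the regions from 3951051 to 3955480 and from 3955533 to 3964004. Next came V from 14127191 to 14131914 and from 14132112 to 14137193, with 197 bp between them. The third pair, on I from 4486204 to 4492949 and from 4493196 to 4497673, lay 246 bp apart. Each such pair would be 1 wider region if the gap were closed. The highest count in a bin of 1 Mb was 14 regions, on I from 9000001 to 10000000, beside 85 shorter peaks. The median was 3 per bin.

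Of 97 whole bins of 1 Mb, 15 held no broad region, with 6 of them on V, 3 on II, 3 on IV, 2 on I, 1 on III and 0 on X. The longest stretch with none lay at the right end of V. After the region that ends at 16358279, the list had 90 shorter peaks and no broad region over 4.56 Mb. The left end of IV had none before 2992698, over 2.99 Mb with 134 shorter peaks. Between broad regions, the longest gap was 2.70 Mb on II, which held 82 shorter peaks. Shorter peaks were thus present in the stretches that lacked broad regions, but in those named they were sparser than over the whole chromosome. Over whole chromosomes shorter peaks lay at 42.4 per Mb on V, 50.3 per Mb on IV and 55.9 per Mb on II.

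Replicate 1 was not used to choose the regions, so it gives a separate view of them. A replicate 1 peak met 345 of the 360 broad regions (95.8%, 93.2 to 97.6%) and 2866 of the 6011 shorter peaks (47.7%, 46.4 to 49.0%), with an adjusted p of 5.91e-85 (two-sided Fisher's exact test). Of the 1040 shorter peaks from 2000 to under 4000 bp, 80.9% were met (78.3 to 83.2%). A wide interval meets a peak more easily than a narrow one. The midpoint of the interval, a single base, was therefore compared as well. It lay in a replicate 1 peak for 303 broad regions (84.2%, 79.98 to 87.8%) and for 2731 shorter peaks (45.4%, 44.2 to 46.7%), with an adjusted p of 4.17e-49 (two-sided Fisher's exact test). The direction held on 6 of 6 chromosomes, with differences of 34.6 (X) to 46.0 points (III).

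This support grew with width up to 8000 bp and had no step at 4000 bp. The midpoint lay in a replicate 1 peak for 16.5% of peaks under 1000 bp, 50.4% from 1000 to under 1500 bp, 57.3% from there to under 2000 bp, 68.5% to under 3000 bp and 77.0% to under 4000 bp. Above the limit it was 80.4% from 4000 to under 5000 bp, 84.8% to under 6000 bp, 89.6% to under 8000 bp, 83.9% to under 10000 bp and 86.7% at 10000 bp or more. The intervals of neighbouring classes overlapped from 3000 bp upwards. The central share of autosomal peaks followed another course: it was 33.8% under 1000 bp, 52.3% from 1500 to under 2000 bp, 46.0% just under the limit, 60.4% just above it and 52.6% in the widest class, where 10 of 19 autosomal regions were central. The X share was 21.6% in the narrowest class, grew in each class up to 32.2% just under the limit, and was 22.4% just above it and 36.7% in the widest class, which held 30 regions.

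**Figure D3:**
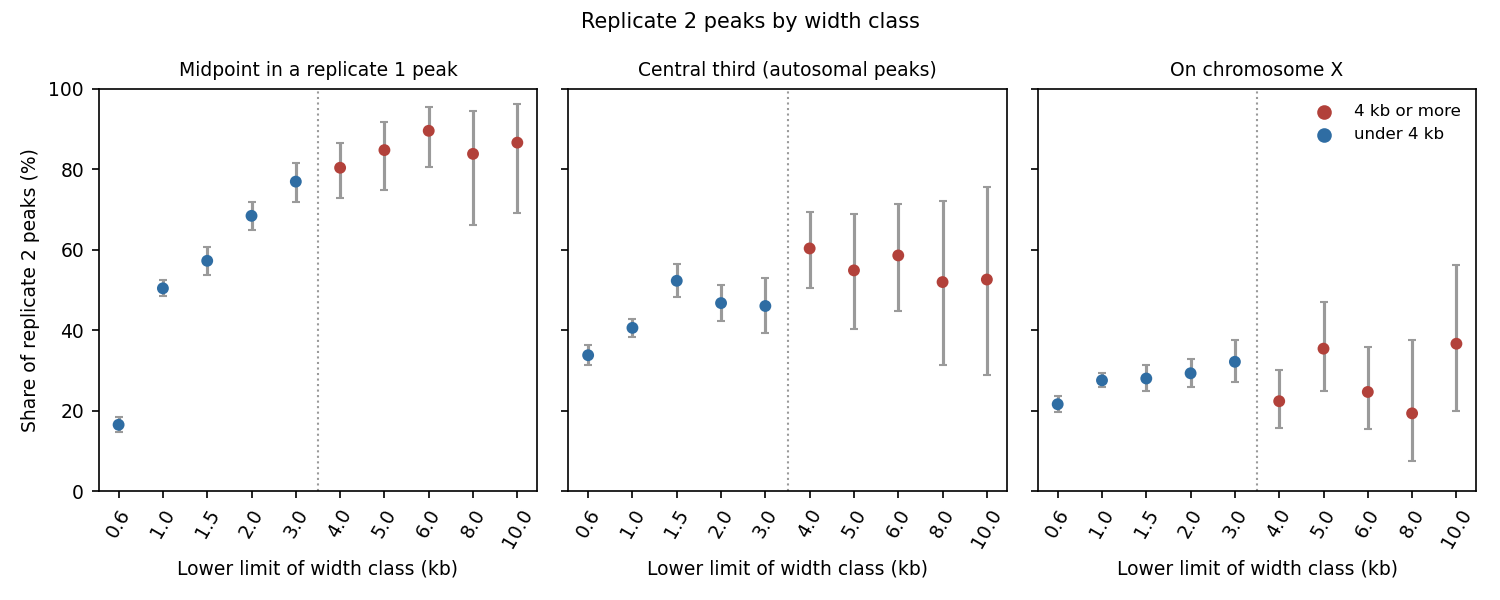
Replicate 2 peaks in 10 width classes, labelled by the lower limit in kb (the first class holds all peaks under 1 kb): share with the midpoint in a replicate 1 peak, share of autosomal peaks in the central 33.3%, and share on X, with exact 95% binomial intervals; red classes are 4 kb or more and blue ones are narrower. The first share goes from 16.5% to 77.0% below the dotted line at 4 kb and lies between 80.4% and 89.6% above it.

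The score in replicate 2 moved with this support, and within the higher score classes the direction turned. Among peaks that scored 1000 to under 3100, the midpoint lay in a replicate 1 peak for 79 of 98 broad regions (80.6%, 71.4 to 87.9%) and for 1056 of 1152 shorter peaks (91.7%, 89.9 to 93.2%), with an adjusted p of 0.00113 (Fisher's exact test). At 3100 or more the shares were 211 of 235 (89.8%, 85.2 to 93.3%) and 270 of 286 (94.4%, 91.1 to 96.8%), and the difference did not pass (adjusted p = 0.0847, Fisher's exact test). Under 1000 they were 13 of 27 (48.1%, 28.7 to 68.1%) and 1405 of 4573 (30.7%, 29.4 to 32.1%). These score classes were set after the values had been seen. By any overlap in place of the midpoint, a replicate 1 peak met all of the broad regions and all of the shorter peaks that scored 3100 or more. The part of score in the difference over all scores was not tested.

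**Figure D4:**
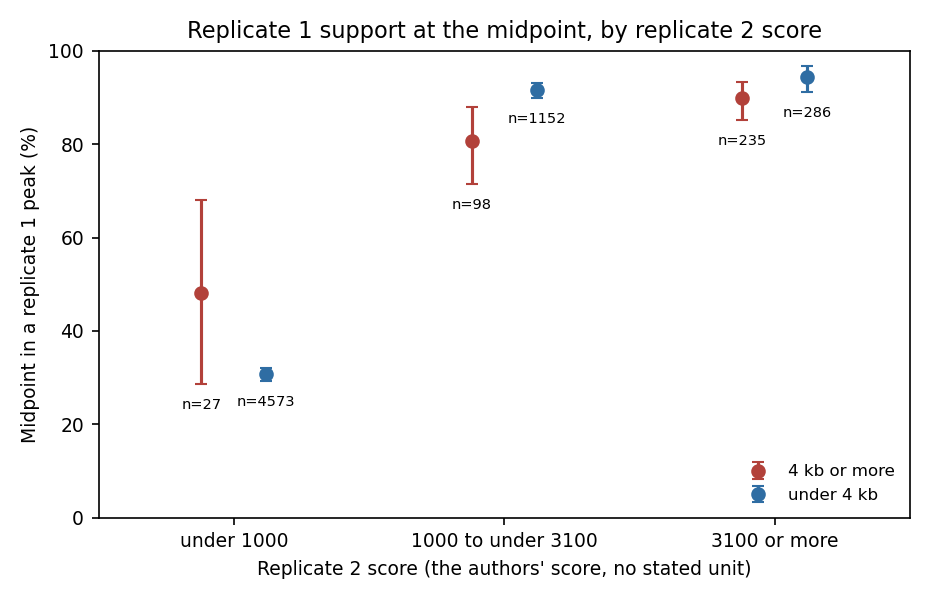
Share of replicate 2 peaks whose midpoint lay in a replicate 1 peak, for peaks of 4 kb or more (red) and under 4 kb (blue) in 3 classes of the authors' replicate 2 score, with exact 95% binomial intervals and the number of peaks. At scores of 1000 to under 3100 the broad regions lie lower, at 80.6% against 91.7%.

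The replicate 1 peaks at broad regions also tended to score higher than those at shorter peaks. Taking the replicate 1 peak that shared most bases, 131 of the 345 regions met by replicate 1 (38.0%, 32.8 to 43.3%) had one of its highest-scoring 10%. Of the 2866 shorter peaks met, 212 did (7.40%, 6.47 to 8.42%), with an adjusted p of 9.09e-48 (two-sided Fisher's exact test). Of the 841 among them that were from 2000 to under 4000 bp wide, 16.5% did. Against these alone the adjusted p was 1.63e-14 (Fisher's exact test). The median replicate 1 score was 1121 at broad regions (interquartile range 419 to 2348) and 188 at shorter peaks (89.4 to 503). The direction turned at replicate 2 scores of 3100 or more, where the difference did not pass: 50.6% of 235 regions and 54.5% of 286 shorter peaks had such a replicate 1 peak (adjusted p = 0.474, Fisher's exact test). Over all scores, the replicate 1 peaks that shared most bases were also wider at broad regions. Their median width was 3686 bp there, 1236.5 bp at shorter peaks and 1921 bp at those from 2000 to under 4000 bp. The part of this width in the score difference was not tested.

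Replicate 1 covered most bases of most regions but often divided them. It listed 1 peak in 189 regions (52.5%), 2 in 115, 3 in 31 and 4 to 6 in 10, and none in 15. In all, 156 regions (43.3%, 38.1 to 48.6%) were divided into 2 or more peaks, and 114 of the shorter peaks (1.90%, 1.57 to 2.27%) were. Of the 1040 shorter peaks from 2000 to under 4000 bp, 9.90% were (8.16 to 11.9%). The 211 gaps between neighbouring replicate 1 peaks in a region had a median of 169 bp and an interquartile range of 80.5 to 437 bp, so most divisions were short interruptions. The longest such gap was 2965 bp. Division grew with the width chosen as the limit, to 49.8% at 5000 bp.

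The median share of a region's bases in replicate 1 peaks was 79.6%, with an interquartile range of 63.2 to 92.6%. The single peak with most bases covered a median of 58.9%. At least 95% of the bases lay in replicate 1 peaks for 69 regions (19.2%, 15.2 to 23.6%), and 1 peak alone reached that in 51 (14.2%, 10.7 to 18.2%). The widest of these 51 lay on V from 6220815 to 6231263 (10449 bp), where a replicate 1 peak of 10380 bp covered 99.3% and both lists scored 3100. It was followed by X from 4519355 to 4527068 (7714 bp, 97.0%) and V from 4501479 to 4508794 (7316 bp, 96.7%). The last of these scored 1374 in replicate 2 and 519 in replicate 1, and the series list covered only 41.5% of it, with 7 peaks. The others of the 5 widest were IV from 2992698 to 2999840 (7143 bp, 96.7%) and II from 11630974 to 11637811 (6838 bp, 98.1%).

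Replicate 1 usually stayed inside the ends of the region. Of the 345 regions met, its peaks lay within both ends in 204 and passed at least 1 end in 141 (40.9%, 35.6 to 46.3%), both ends in 28 of these. The outermost replicate 1 ends lay a median of 191 bp inside the region's ends. From its first to its last base, replicate 1 spanned a median of 85.9% of the region's width. Across the 345 regions, log10 width and log10 of the bases in replicate 1 peaks had a Pearson correlation of 0.74 and a Spearman correlation of 0.78. These are across regions within 1 pair of libraries, and a wider region has room for more shared bases. The covered share itself varied little with width (Spearman rho = 0.15 over 360 regions).

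At the low end, replicate 1 met 5 regions but covered under 25% of their bases in all. The lowest was V from 1464281 to 1468411 (4131 bp, score 1223), where a peak of 580 bp covered 14.0%. That short peak scored 1734 in replicate 1. The 16.6 kb region on V followed, and then I from 9162744 to 9169904 (7161 bp, score 1970, 19.4%), I from 8118815 to 8123181 (4367 bp, score 1011, 22.1%) and X from 16958951 to 16964003 (5053 bp, score 2019, 23.4%). In the last, the replicate 1 peak of 1184 bp scored 2348, so replicate 1 had a strong narrow peak inside a region that was wide in replicate 2. The replicate 1 peaks of the 2 regions on I scored 358 and 69.4, against a median of 205 over the replicate 1 list.

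In the 16.6 kb region on V, the right 14122 bp held no replicate 1 peak and 12 of the 14 series-list peaks. These included peaks of 1541 bp with a score of 113.5 and of 1291 bp with a score of 99.3. Of the 664 series-list peaks in broad regions that scored 50 or more, 28 (4.22%, 2.82 to 6.04%) had no replicate 1 peak, and of the 365 that scored 100 or more, 2 (0.55%, 0.07 to 1.97%) had none. One of these 2 is the 1541 bp peak in this region, and the other lay on II from 14667691 to 14668121, with a score of 102. In shorter replicate 2 peaks, 529 of 2775 series-list peaks that scored 50 or more (19.1%, 17.6 to 20.6%) and 77 of 1345 that scored 100 or more (5.72%, 4.54 to 7.10%) had none.

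The 15 regions with no replicate 1 peak scored lower than the others in replicate 2, with a median of 642 (54.2 to 1347), against 3100 (355 to 3219) in the 345 that had one. Their median width was 4602 bp against 5474 bp. The highest series-list score in them had a median of 24.2 (12.5 to 69.7), against 132 in the other regions (20.1 to 221). The nearest replicate 1 peak was 310 to 33652 bp away. X held 9 of the 15, on II there was 1, on III 3, on V 1 and on I 1. That is 9.38% of the broad regions on X (4.38 to 17.1%) and 2.27% of those on the autosomes (0.84 to 4.88%), a difference noticed in the data and not tested. Among shorter peaks, 54.3% on X and 51.6% on the autosomes had no replicate 1 peak.

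The 5 widest of the 15 were found on 4 chromosomes. The first lay at the right end of I from 15059917 to 15071786 (11870 bp, score 805), in the chromosome end that carries the repeated ribosomal RNA genes. The series list covered 90.7% of it, the highest share of any region, with 3 peaks of low and nearly equal score (15.5 to 16.6). How the input behaved there was not analysed here. The next were III from 8861575 to 8868878 (7304 bp, score 642) and V from 11071822 to 11078999 (7178 bp, score 1347), of which the series list covered 34.3% and 34.6%. On X they were the regions from 12910929 to 12916314 (5386 bp, score 54.2), with 8 series-list peaks, and from 13936473 to 13941840 (5368 bp, score 1150), with 7. The score of 54.2 was the lowest of all 360, and a replicate 1 peak began or ended 310 bp from that region.

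**Figure D5:**
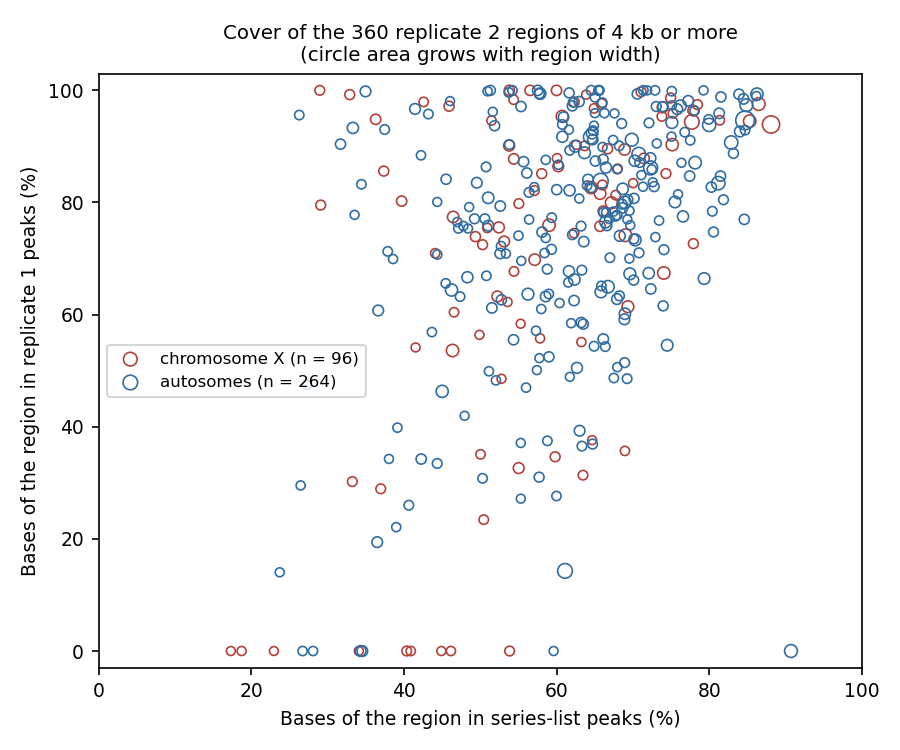
Each circle is 1 of the 360 broad regions, placed by the share of its bases in series-list peaks and in replicate 1 peaks, for X (red) and the autosomes (blue), with circle area growing with width. Most lie above 63.2% cover by replicate 1, the 15 regions with none lie on the bottom line, and the 16.6 kb region on V lies apart at 14.3% by replicate 1 and 61.1% by the series list.

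The series list divided nearly all regions into several narrower peaks. It listed 2 or more in 359 of the 360 (99.7%, 98.5 to 99.99%), against 1702 of the 6011 shorter peaks (28.3%, 27.2 to 29.5%). Among the shorter peaks nearest in width, from 2000 to under 4000 bp, 898 of 1040 held 2 or more (86.3%, 84.1 to 88.4%). Series-list peaks are narrow, and 18 of the 13878 reached 4000 bp, so the width rule nearly fixed this division. The series list was called with MACS v2 and replicate 2 with MACS, and their median peak widths were 331 and 1200 bp. The part of the caller in the division was not tested. The median of a broad region was 5 peaks, the interquartile range 4 to 6, and 13 regions held 10 or more. Per length, broad regions held fewer series-list peaks, with a median of 0.83 per kb against 0.98 per kb in shorter peaks. In those from 2000 to under 4000 bp it was 0.92 per kb. Of all the shorter peaks, 71.5% held exactly 1, so width largely set their count per kb. Neighbouring series-list peaks in a region had their midpoints a median of 970 bp apart (705 to 1343 bp) and gaps of 258 bp (149 to 420 bp).

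The series list covered a median of 62.8% of a region (52.6 to 69.6%) and 40.9% of a shorter peak (34.1 to 49.9%). For shorter peaks from 2000 to under 4000 bp it was 50.5% (40.5 to 59.5%), between these values. The regions reached about as far beyond the outermost series-list peaks as short ones did. The median distance to the left end was 307 bp in broad regions and 294 bp in shorter peaks, and to the right end 350 bp and 335 bp. A broad region thus held a row of series-list peaks with margins like those of a short peak.

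The 1833 series-list peaks in broad regions were 13.2% of that list. They were wider than the 8408 found in shorter replicate 2 peaks alone, with a median of 532 bp (313 to 922 bp) against 391 bp (289 to 553 bp), but their median score was 26.7 (9.59 to 84.0), against 28.0 (11.8 to 69.5). All 18 series-list peaks of at least 4000 bp lay in broad regions. Strong and weak peaks stood side by side: the highest score in a region had a median of 129 and the lowest had a median of 6.49. Of the highest-scoring 10% of the series list, 22.05% lay in broad regions and 78.0% in shorter peaks.

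The highest-scoring series-list peak lay in the middle 50% of 255 regions (70.8%, 65.8 to 75.5%). For shorter peaks from 2000 to under 4000 bp the share was 71.4%, so position within the interval did not set the broad regions apart from these.

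In the other direction, replicate 1 had 190 peaks of at least 4000 bp, or 5.34% of its list. Of these, 158 (83.2%, 77.1 to 88.2%) met a broad region of replicate 2, and 151 of the 360 broad regions (41.9%, 36.8 to 47.2%) met such a peak. Of all 3559 replicate 1 peaks, 556 (15.6%) met a broad region, and a wide peak meets one more easily than a narrow one. Of the 190, a further 30 met shorter replicate 2 peaks alone, in 5 cases more than 1, and 2 met none. The replicate 2 peaks covered a median of 53.1% of the 32 replicate 1 peaks with no broad region. The 2 with no replicate 2 peak lay on I from 10945699 to 10953465 (7767 bp, replicate 1 score 677) and on X from 15806922 to 15812233 (5312 bp, score 247). The nearest replicate 2 peaks were 18087 and 25942 bp away, and the series list held 8 and 3 peaks there with scores of at most 13.0 and 10.1.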

How the data were processed

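ZFP-1 ChIP-seq peak lists of 2 replicates and of the whole series were used. The authors deposited each peak as first base, last base and 1 score of unstated scale. The caller is MACS for the replicates and MACS v2 for the series, and coordinates are on WormBase WS220, 1-based, per the file headers and contents. BWA and ce10 are named in the submitters' processing notes, without roles. Whether replicates were pooled for the series list or input was the control is not given in the sources used here.

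Regions were the replicate 2 peaks of at least 4000 bp. They and all comparisons were chosen with earlier results of these data known. Overlap counted from 1 bp, and shared bases were equal to those of bedtools 2.31.1. Shares carry exact Clopper-Pearson 95% intervals, which cover counting error over peaks only. The 5 comparisons with shorter peaks used two-sided Fisher's exact tests with Benjamini-Hochberg adjustment (Python 3.11.15, scipy 1.17.1, pandas 2.3.3, numpy 2.4.6), and the code was tested on simulated data. For an alternative setting, its p-value took the place of the main one among the 5, so the adjustment does not cover the number of alternatives. Chromosome spans end at the last base of any peak. Regions named are the 10 widest, the widest on each chromosome, those with no, low or near-full cover by 1 replicate 1 peak, those with most series-list peaks, the closest pairs and those next to 4000 bp; the replicate 1 peaks without a replicate 2 peak and the series-list peaks scoring 50 or 100 or more without replicate 1 were chosen after their values were seen. The gene table given is on WBcel235, another build, so no gene was assigned and no sequence was read.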

Additional observations from a re-analysis of the deposited data

How the results depend on the processing

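Of 55 alternatives over 9 results, 36 changed neither a call nor a direction and moved no untested value beyond its interval, 1 lost significance, 8 changed direction and 10 moved a value beyond its interval. The share of autosomal broad regions in the centre, 57.6%, lost significance with regions taken from replicate 1 (50.4%, adjusted p = 0.11 by Fisher's exact test) and otherwise ran from 52.4% to 59.8% for the central 33.3%, with leaving out 1 autosome at a time giving 56.2% to 59.8%. The share of broad regions on X, 26.7%, did not pass the test under any alternative. It was 30.0% with regions from replicate 1. The sign of the difference turned against peaks from 2000 to under 4000 bp (26.7% against 30.2%), without II (30.5%), without IV (30.1%), without V (30.97%) and among peaks supported at the midpoint (24.8%), with adjusted p from 0.227 to 1 (Fisher's exact test). Midpoint support turned to 80.6% against 91.7% at scores of 1000 to under 3100 and to 89.8% against 94.4% at 3100 or more, and the share with a top-scoring replicate 1 peak turned to 50.6% against 54.5% there. The alternatives on midpoint support for placement and on score classes from 1000 upwards were chosen after seeing the data. With a limit of 3000 bp, median cover was 77.0% by replicate 1 and 59.0% by the series list, and 31.2% and 97.6% of regions were divided by them. With 5000 bp, 49.8% and 100% were divided. With better-scoring listed peaks alone, cover was 71.4% and 52.0%, and 85.3% of regions were divided by the series list. Joining series-list peaks under 200 bp apart gave 95%. The cause of these changes was not tested. Read depth is unknown. No paired analysis was possible because both libraries with a list belong to the ChIP group.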
